A study of Sus scrofa with 8 samples.

Results

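TREM1, NCF1, ALOX5AP, LTF, NPG4 and PMAP-23 are genes of the neutrophil and its relatives among the white blood cells, and 7 of the 43603 probes on the array read them. On this array, 1932 genes could be named. The 6 genes fall into a group of a receptor, an oxidase subunit and a leukotriene protein (TREM1, NCF1 and ALOX5AP, 4 probes) and a group of granule peptides (LTF, NPG4 and PMAP-23, 3 probes). They were chosen from their difference between the diets in these same arrays, so the diet values below are a description and carry no test. Probes were found by gene symbol or full gene name in the array annotation. ALOX5AP, which the array calls FLAP, and NPG4, which it lists under a locus number, were matched through the pig RefSeq gene table. The identity of the NPG4 probe is uncertain: RefSeq gives the gene as protegrin 4, while the array describes it as a homologue of proline- and arginine-rich antibacterial peptides.

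Whole blood came from 8 female Clawn miniature pigs aged 8 to 9 months, with 1 array per animal. The 4 SDW animals ate standard dry feed mixed with equal weights of water and shochu distilled water (SDW), named after the Japanese spirit shochu, and the 4 control animals ate the standard dry feed. Feeding lasted 12 weeks by the design text, but 14, 15, 16 or 17 weeks by the descriptions of the animals numbered 1 to 4 on either diet. The blood was collected in tubes that preserve RNA and was not sorted, and the labels do not say what the shochu liquid contained or whether animals shared a pen.

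Neutrophils are short-lived phagocytes that reach a site of infection first. TREM1 is a surface receptor that amplifies inflammatory signals through the adaptor TYROBP. NCF1 is the cytosolic organizer subunit of the NADPH oxidase, which makes superoxide for killing microbes, and ALOX5AP presents arachidonic acid to 5-lipoxygenase at the start of leukotriene synthesis. LTF, lactoferrin, is an iron-binding protein of secondary granules. NPG4 and PMAP-23 belong to the cathelicidins, a family that is large in pigs, in which a conserved precursor is cut to release short peptides that damage bacterial membranes. Cathelicidins are made mainly while neutrophil precursors mature in the bone marrow.

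The probes are 60-base DNA oligonucleotides, and the stretches shown here, 5′ to 3′, are those that tell the genes apart or join them. TREM1, NCF1 and one ALOX5AP probe are given whole, since each level below rests on 1 such oligonucleotide. For the granule peptides 30 bases are given, with capitals marking the run of 18 bases that the NPG4 and PMAP-23 probes share and, in LTF, the hexamer AATAAA, the usual signal for cleavage and polyadenylation.
TREM1: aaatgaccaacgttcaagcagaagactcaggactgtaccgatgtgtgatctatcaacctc
NCF1: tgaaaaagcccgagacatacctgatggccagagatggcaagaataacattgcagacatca
ALOX5AP: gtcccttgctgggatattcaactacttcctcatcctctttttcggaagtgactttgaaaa
NPG4: cccgcatctgtcAAATAAATTCTTGTGAAA
PMAP-23: tcaggactggaaAAATAAATTCTTGTGAAA
LTF: ctcttagcaagaAATAAAattagaaattct

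The NPG4 and PMAP-23 probes were the only 2 of the 43603 that held this shared run, and whether the message of one gene also binds the probe of the other was not tested. AATAAA stood on the given strand in 3 of the 7 member probes, those of the granule peptides, against 12.1% of all probes, and in 16.3% of all probes when either strand was counted. It overlaps the shared run. In the RefSeq gene order of Sscrofa11.1, NPG4, the cathelicidin gene PR39 and PMAP-23 follow each other on chromosome 13, and LTF lies on the same chromosome.

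Levels are log2 intensities scaled to each array's 75th percentile, which is 0 on this scale, and levels of different probes are not set against each other. The arrays lay on 3 slides, with SDW 2, SDW 3 and control 3 on slide 1, SDW 1, control 2 and control 4 on slide 2, and SDW 4 and control 1 on slide 3, which was scanned on another day. The 75th percentile of the signal was 40.03 to 73.6 in SDW animals and 41.4 to 58.7 in control animals, and 38.0% to 43.5% of probes in SDW animals and 35.2% to 42.3% in control animals were well above background. Over the 17355 probes kept, 0 passed an adjusted p of 0.05 by limma between the diets (0%), and 251 had an unadjusted p under 0.05 (1.45%), of which 90 were lower in SDW animals (0.519%). In unsorted blood, fewer cells of a type and less RNA per cell cannot be told apart.

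All 7 probes passed the filter on dim probes, which asked for 4 arrays well above background, PMAP-23 with exactly 4 and the others with 8. All 6 genes had a lower mean in SDW animals, by 0.42 to 0.87 on the log2 scale over the 7 probes. Of all kept probes, 47.1% had a lower mean in SDW animals. A difference of -0.5 or lower was found for 6 of the 7 member probes and for 6.07% of kept probes. In none of the 7 did every SDW animal lie below every control animal, which 0.386% of kept probes showed. The rule used these values, and nothing is read from the counts.

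**Figure D1:**
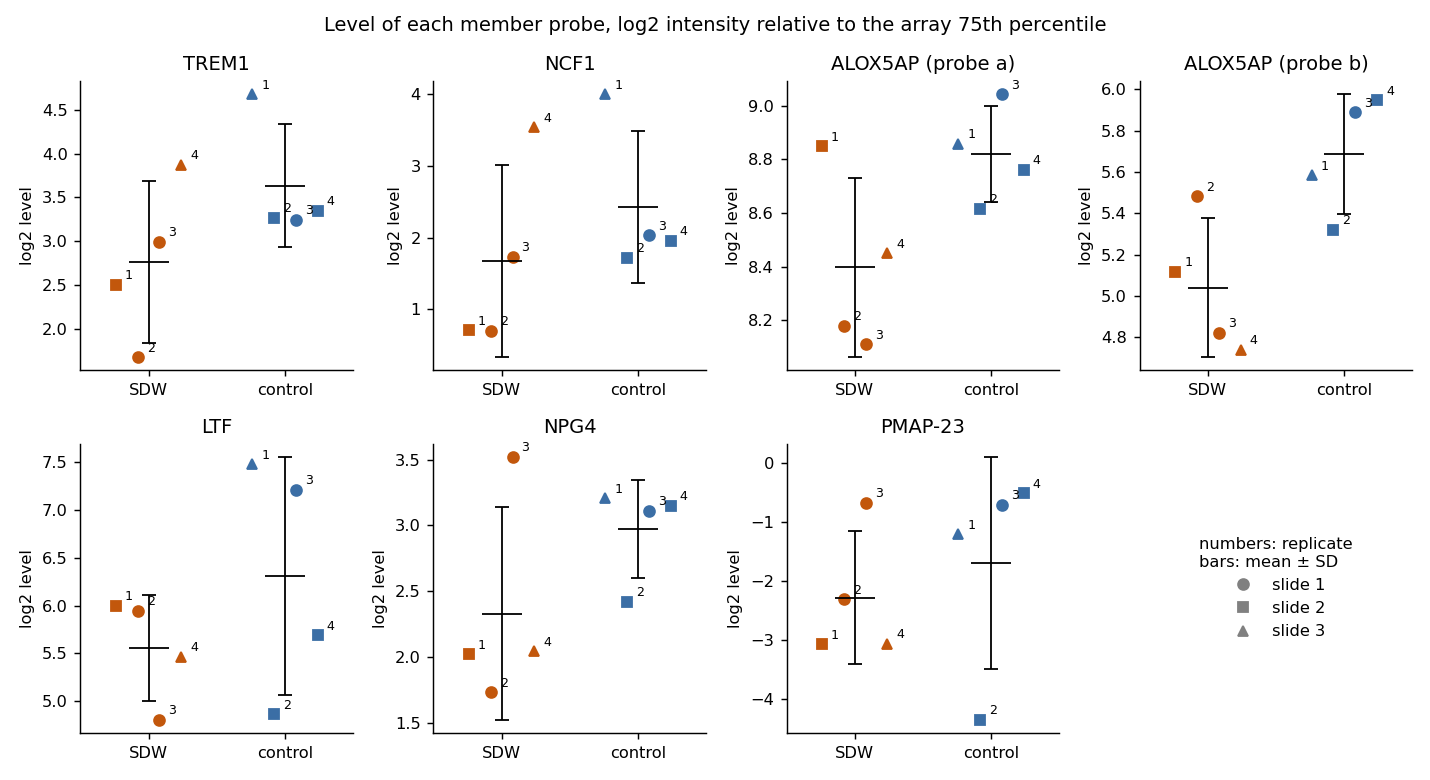
Log2 level of each member probe relative to the 75th percentile of the array (y axis), in SDW and control animals (x axis). Points are animals with their replicate number, shapes are slides, and bars are the mean and SD of 4 animals; probes a and b are the brighter and the dimmer ALOX5AP probe. The 2 animals on slide 3 are the highest for TREM1 and NCF1, and the diets overlap in every panel.

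TREM1 stood at 2.50, 1.67, 2.99 and 3.87 in SDW animals 1 to 4, against 4.68, 3.27, 3.24 and 3.35 in control animals 1 to 4. Control animals 2, 3 and 4 lay within a narrow band, SDW animals 1, 2 and 3 lay below it, and both animals of slide 3 lay above it. The mean was 2.76 ± 0.92 in SDW animals and 3.63 ± 0.70 in control animals (SD, n = 4 each), so SDW minus control was -0.87 (standard error, SE, 0.49), or 0.545-fold. Within slides 1, 2 and 3 the difference was -0.91, -0.81 and -0.80. Each of these rests on 1 or 2 animals per diet, so nothing is read from their similar size. On slide 1, SDW 2 at 1.67 and SDW 3 at 2.99 were set against control 3 alone, at 3.24. With 1 animal left out, the difference over all slides ranged from -1.25 without SDW 4 to -0.51 without SDW 2, and was -0.53 without control 1.

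NCF1 had levels of 0.71, 0.70, 1.74 and 3.54 in SDW animals 1 to 4, against 4.00, 1.72, 2.04 and 1.96 in control animals 1 to 4. SDW 4 and control 1, both of slide 3, were far above the other 6 animals, and SDW 1 and SDW 2 were the lowest. The mean was 1.67 ± 1.34 in SDW animals and 2.43 ± 1.06 in control animals (SD, n = 4 each), so SDW minus control was -0.76 (SE 0.69). The slides gave -0.82, -1.13 and -0.46. Leaving out SDW 4 gave -1.38, and leaving out control 1 gave -0.23.

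TREM1 and NCF1 shared their order at both ends, with control 1 and SDW 4 highest and SDW 1 and SDW 2 lowest. The slide held 60.6% of the variance of TREM1 and 80.1% of that of NCF1, against a median of 44.7% over kept probes. Diet held 27.6% for TREM1 and 11.6% for NCF1, against a median of 4.97%. The members were chosen for their diet difference, so a diet share above that median follows from the choice and is no result. The slide and diet shares were computed separately and can overlap, since not every slide holds the diets in equal numbers. Whether the slide or its scan had a part in their levels was not tested, and the differences within slides are those given above.

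ALOX5AP was read by 2 probes that agreed in direction but not in the order of the animals. The brighter probe, A_72_P153186, stood at 8.85, 8.18, 8.11 and 8.45 in SDW animals 1 to 4, against 8.86, 8.62, 9.04 and 8.76 in control animals 1 to 4. SDW 1 was level with control 1, and the other 3 SDW animals lay below every control animal. The mean was 8.40 ± 0.33 in SDW animals and 8.82 ± 0.18 in control animals (SD, n = 4 each), so SDW minus control was -0.42 (SE 0.24). On slide 2, SDW 1 was 0.16 above the mean of the control animals there, while slides 1 and 3 gave -0.90 and -0.41.

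The second ALOX5AP probe, A_72_P207457, whose bases are given above, had levels of 5.12, 5.48, 4.82 and 4.74 in SDW animals 1 to 4, against 5.59, 5.32, 5.89 and 5.95 in control animals 1 to 4. Here SDW 2 was the exception, lying above control 2, and the other 3 SDW animals lay below every control animal. The mean was 5.04 ± 0.34 in SDW animals and 5.69 ± 0.29 in control animals (SD, n = 4 each), so SDW minus control was -0.65 (SE 0.26). All 3 slides gave a lower SDW value, at -0.74, -0.52 and -0.85. The slide held 17.6% and 7.95% of the variance of the brighter and the dimmer probe, and diet held 45.3% and 58.4%. These diet shares also follow from the choice of the members, and nothing is read from them.

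Lactoferrin, LTF, stood at 5.998, 5.95, 4.81 and 5.46 in SDW animals 1 to 4, against 7.47, 4.87, 7.21 and 5.69 in control animals 1 to 4. Control 1 and control 3 were well above all other animals, while control 2 was among the lowest, next to SDW 3. The mean was 5.55 ± 0.55 in SDW animals and 6.31 ± 1.24 in control animals (SD, n = 4 each), so SDW minus control was -0.76 (SE 0.56). Slides 1 and 3 gave -1.83 and -2.01, and slide 2 gave 0.72, the opposite direction. The difference was -1.24 without control 2, -0.37 without control 1 and -0.34 without the animals of slide 3.

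NPG4, the probe of uncertain identity, had levels of 2.02, 1.73, 3.52 and 2.05 in SDW animals 1 to 4, against 3.21, 2.42, 3.11 and 3.15 in control animals 1 to 4. SDW 3 was the highest of all 8 animals, and the other 3 SDW animals lay below every control animal. The mean was 2.33 ± 0.81 in SDW animals and 2.97 ± 0.37 in control animals (SD, n = 4 each), so SDW minus control was -0.64 (SE 0.39). The slides gave -0.49, -0.76 and -1.16. Without SDW 3 the difference was -1.04.

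PMAP-23 was the dimmest member, well above background in SDW 2, SDW 3, control 3 and control 4, and not in the other 4 animals. Its levels were -3.07, -2.31, -0.67 and -3.07 in SDW animals 1 to 4, against -1.20, -4.35, -0.70 and -0.51 in control animals 1 to 4. The scanner's own error was 11.2% to 94.1% of the signal, where the other members had about 10%. The mean was -2.28 ± 1.13 in SDW animals and -1.69 ± 1.80 in control animals (SD, n = 4 each), so SDW minus control was -0.59 (SE 0.85). Control 2, the lowest animal, was not above background, and without it the difference was -1.48, while without control 4 it was -0.19. With normexp background correction the difference was -0.23, and without slide 3 it was -0.16.

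**Figure D2:**
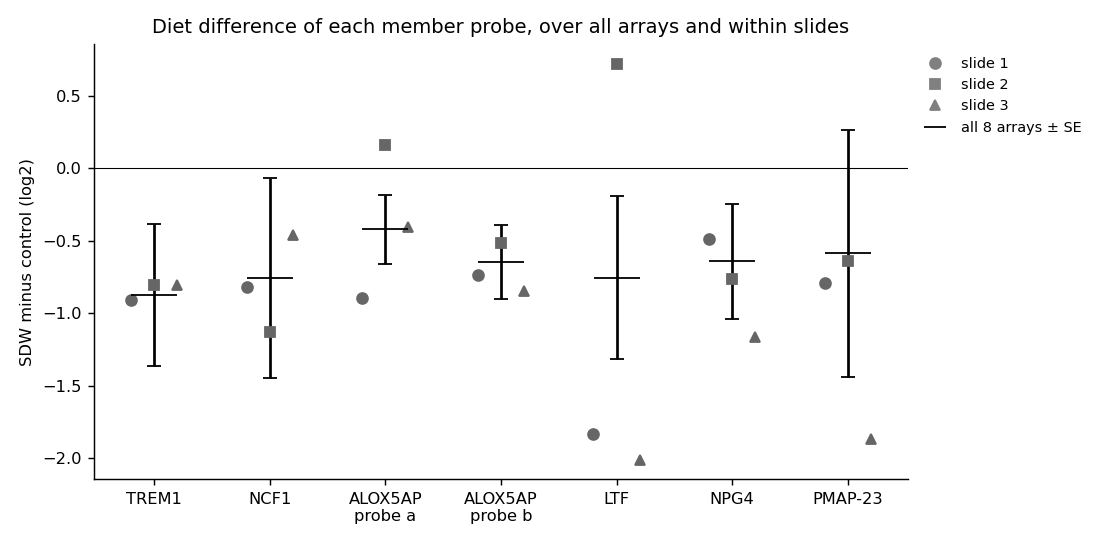
SDW minus control difference of each member probe in log2 units (y axis), by probe (x axis). The horizontal mark is the difference over all 8 arrays with its standard error, and the shapes are the differences within slides 1, 2 and 3. LTF and the brighter ALOX5AP probe are above 0 on slide 2, and all other points are below 0.

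The 2 cathelicidins could be set beside 3 more probes of related peptides. One reads PR39, a proline- and arginine-rich cathelicidin, and 2 are described only as antibacterial peptide. PR39 stood at -4.71, -3.06, -0.58 and -2.15 in SDW animals 1 to 4, against -3.63, -2.66, -2.32 and -1.81 in control animals 1 to 4, and was well above background in SDW 3 and control 4 only. The first antibacterial peptide probe, A_72_P414028, had -3.06, -1.38, 0.67 and -2.99 in SDW animals 1 to 4, against -1.09, -1.72, -0.88 and -0.85 in control animals 1 to 4. SDW 3 was the highest animal on NPG4, on PR39 and on both antibacterial peptide probes, and came next after control 4 on PMAP-23. SDW 1 was the lowest on PR39 and on both antibacterial peptide probes.

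LTF did not share this order: SDW 3 was its lowest animal. The direction between the diets therefore came from SDW 1, SDW 2 and SDW 4 for NPG4, while SDW 3 stood with or above the control animals on each of these 5 probes. For PMAP-23, PR39 and the antibacterial peptide probes several of the values lie near background, where their order is imprecise.

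**Figure D3:**
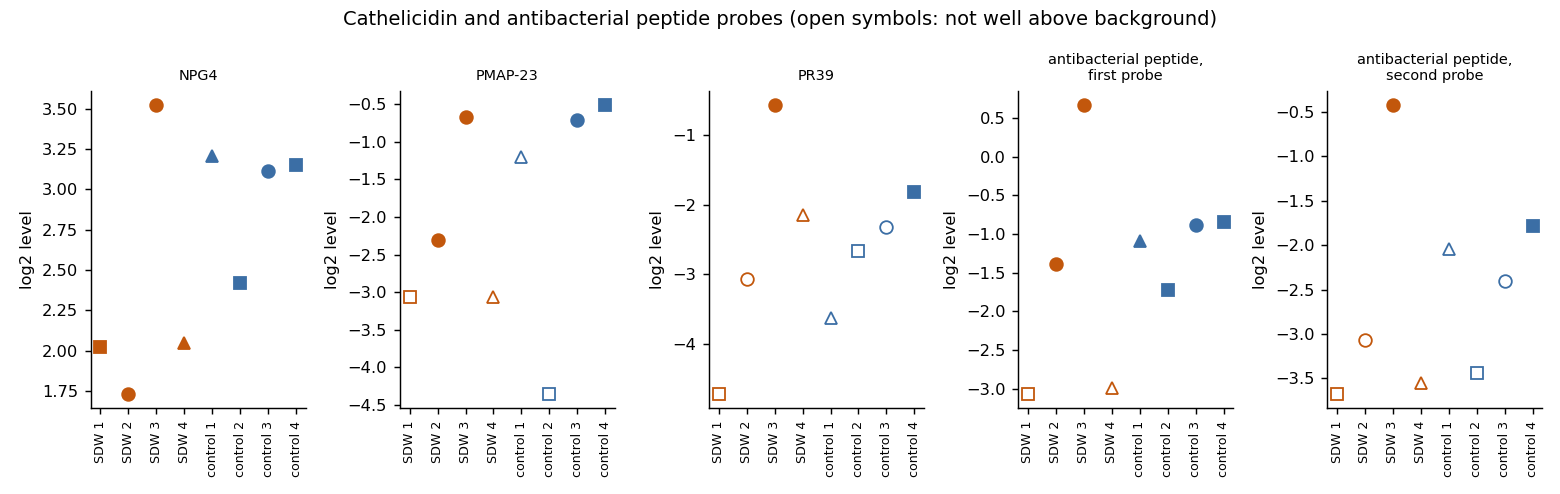
Log2 level relative to the 75th percentile of the array (y axis) of NPG4, PMAP-23, PR39 and 2 probes described as antibacterial peptide, per animal (x axis, SDW then control; shapes are slides as above). Filled symbols are well above background and open ones are not. SDW 3 is the highest animal in 4 panels and comes after control 4 alone for PMAP-23.

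The receptor, oxidase and leukotriene genes were set against the granule peptides within each animal, as mean levels relative to the mean of each gene over the 8 arrays, with the brighter ALOX5AP probe. The first group averaged -0.34 ± 0.75 in SDW animals and 0.34 ± 0.60 in control animals (SD, n = 4 each), a difference of -0.68. The granule peptides averaged -0.33 ± 0.47 in SDW animals and 0.33 ± 1.05 in control animals, a difference of -0.66. Over all 8 arrays these values lie close together, but within slides 1, 2 and 3 they were -0.87, -0.59 and -0.56 for the first group and -1.04, -0.23 and -1.68 for the granule peptides. Single animals moved them too. Without SDW 4 the first group differed by -1.02 and the granule peptides by -0.53, without SDW 2 by -0.43 and -0.64, without control 1 by -0.39 and -0.45, without control 2 by -0.83 and -1.18, and without control 3 by -0.75 and -0.44. Without slide 3 they differed by -0.73 and -0.32. The members were chosen for lower values in SDW animals, so the shared direction is no result.

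Their gap within an animal, first group minus granule peptides, was -0.05, -0.69, -0.69 and 1.39 in SDW animals 1 to 4, against 0.27, 1.14, -0.85 and -0.51 in control animals 1 to 4. Both diets spanned positive and negative gaps. The mean gap was -0.01 ± 0.98 in SDW animals and 0.01 ± 0.88 in control animals (SD, n = 4 each), a difference of -0.02, far less than the spread between animals. Within slides 1, 2 and 3 the gap differed by 0.16, -0.37 and 1.12, with no common direction. With 1 animal left out it ran from -0.49 without SDW 4 to 0.35 without control 2.

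**Figure D4:**
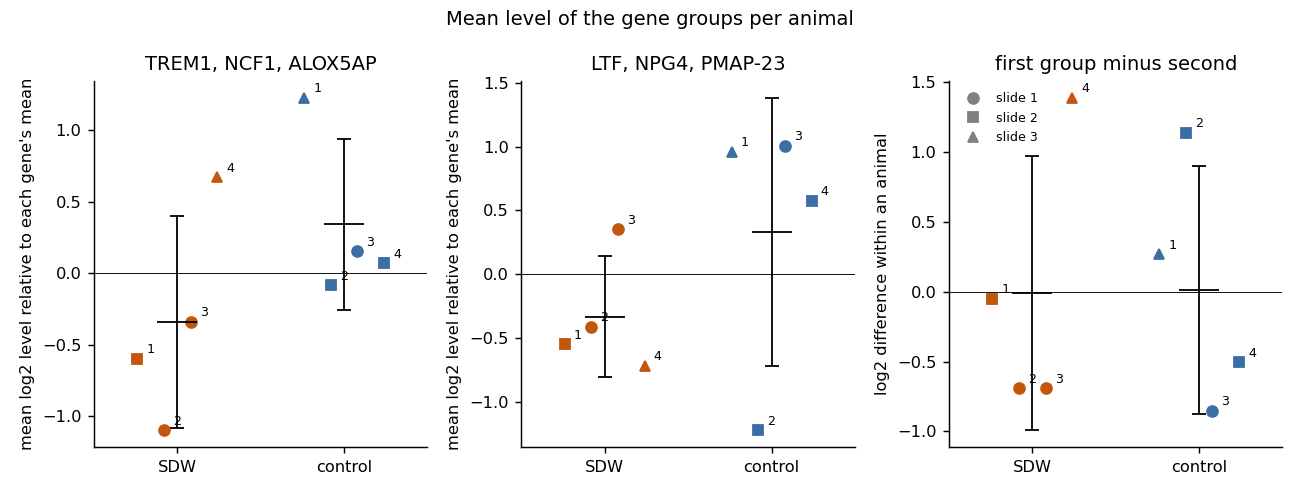
Mean log2 level per animal, relative to the mean of each gene over all arrays, of TREM1, NCF1 and ALOX5AP (left), of LTF, NPG4 and PMAP-23 (middle) and of the first minus the second (right), in SDW and control animals. Points carry replicate numbers, shapes are slides, and bars are the mean and SD of 4 animals. The means of the gap are -0.01 in SDW animals and 0.01 in control animals.

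Other genes of the same pathways were read from lists chosen with earlier results of these arrays known. Of 89 gene symbols listed, some of them aliases of the same gene, 28 had a named probe and 26 were kept. Of these, 18 were lower and 8 higher in SDW animals, where 47.1% of all kept probes were lower. The median difference was -0.06, against 0.02 over all kept probes. All these genes were read in the same animals, so nothing is read from counts of lower and higher genes. None of the 26 passed an adjusted p of 0.05 by limma, and 1 had an unadjusted p under 0.05, against 1.45% of kept probes; that 1 was higher in SDW animals, and 0 of the 26 were lower at that level, against 0.519%.

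That gene was CXCR1, a receptor for interleukin 8. Its level was -1.81, -2.23, -1.72 and -1.66 in SDW animals 1 to 4, against -2.11, -2.46, -4.32 and -2.89 in control animals 1 to 4. It was well above background in 4 of 4 SDW animals and in 0 of 4 control animals, so it passed the filter on dim probes through the SDW arrays alone, and its control values are only a bound. The measured means were -1.85 ± 0.26 in SDW animals and -2.94 ± 0.97 in control animals (SD, n = 4 each), and CXCR1 was not called (adjusted p = 1.00 by limma). The lower bound on the ratio of the means, SDW over control, was 1.73-fold, which does not establish a higher level in SDW animals. That bound holds for the means alone, without the spread between animals, and on slide 3 the measured difference was 0.46 on the log2 scale. Since the filter kept it for its SDW signal, nothing is read from its direction or from its unadjusted p. SDW 2 lay below control 1, so the diets overlapped.

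Among the 7 kept genes of neutrophil receptors and adhesion, 5 were lower and 2 higher in SDW animals. C5AR1, the receptor of complement fragment C5a, averaged 0.97 ± 0.83 in SDW animals and 1.61 ± 0.66 in control animals (SD, n = 4 each), so SDW minus control was -0.64 (SE 0.45). FCGR3A, an IgG receptor, differed by -0.14 (SE 0.26), less than the spread between animals of the same diet.

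Of 5 kept genes of TREM1 signalling and its targets, 3 were lower and 2 higher. SYK, the kinase recruited by the TREM1 adaptor, averaged 5.28 ± 0.18 in SDW animals and 5.73 ± 0.56 in control animals (SD, n = 4 each), so SDW minus control was -0.45 (SE 0.30). With slide as a block in limma the SYK difference was -0.62, with an unadjusted p of 0.031 and an adjusted p of 0.731. Without the block its unadjusted p by limma was above 0.05. With the block, 1145 of the 17355 kept probes had an unadjusted p under 0.05, as did 2 of the 26 pathway genes, CXCR1 and SYK. Nothing is therefore read from the unadjusted p of SYK. NFKB1, a transcription factor subunit, differed by -0.18 (SE 0.24), and the cytokine TNF by -0.05 (SE 0.25). TREML2, a relative of TREM1, differed by 0.23 (SE 0.44) on its brighter probe, and by 1.91 (SE 1.35) on a dim one.

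The adaptor TYROBP itself averaged 7.03 ± 0.09 in SDW animals and 6.996 ± 0.21 in control animals (SD, n = 4 each), named here beside TREM1 after its values were seen. Its difference of 0.04 had a standard error of 0.21. Both kept genes of the NADPH oxidase beside NCF1 had a higher mean in SDW animals. NCF4, another cytosolic subunit, averaged 8.88 ± 0.27 in SDW animals and 8.75 ± 0.43 in control animals (SD, n = 4 each), and CYBA, the small membrane subunit, averaged 8.73 ± 0.33 in SDW animals and 8.60 ± 0.43 in control animals. Their differences of 0.13 and 0.13 had standard errors of 0.27 and 0.28, so neither was distinguishable from 0.

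Both kept genes of the leukotriene pathway were lower. CYSLTR1, a receptor of cysteinyl leukotrienes, averaged -1.62 ± 0.67 in SDW animals and -1.15 ± 0.64 in control animals (SD, n = 4 each), so SDW minus control was -0.47 (SE 0.41). GPX4, which reduces lipid peroxides, differed by -0.03 (SE 0.21). Neither ALOX5, the enzyme that ALOX5AP serves, nor LTA4H had a named probe here.

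Of 10 kept granule and antimicrobial genes beside the members, 8 were lower and 2 higher, where 47.1% of all kept probes were lower. The median difference was -0.24, and nothing is read from the count. RETN, resistin, averaged 4.23 ± 0.89 in SDW animals and 4.78 ± 0.37 in control animals (SD, n = 4 each), so SDW minus control was -0.55 (SE 0.42), and its second probe differed by -0.62 (SE 0.39). PGLYRP1, which binds bacterial peptidoglycan, differed by -0.43 (SE 0.42), and CHI3L1, a chitinase-like granule protein, by -0.24 (SE 0.25). SLPI, an inhibitor of granule proteases, was the exception among those named, at 0.36 (SE 0.38). The adjusted p was 1.00 by limma for each gene of this list.

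**Figure D5:**
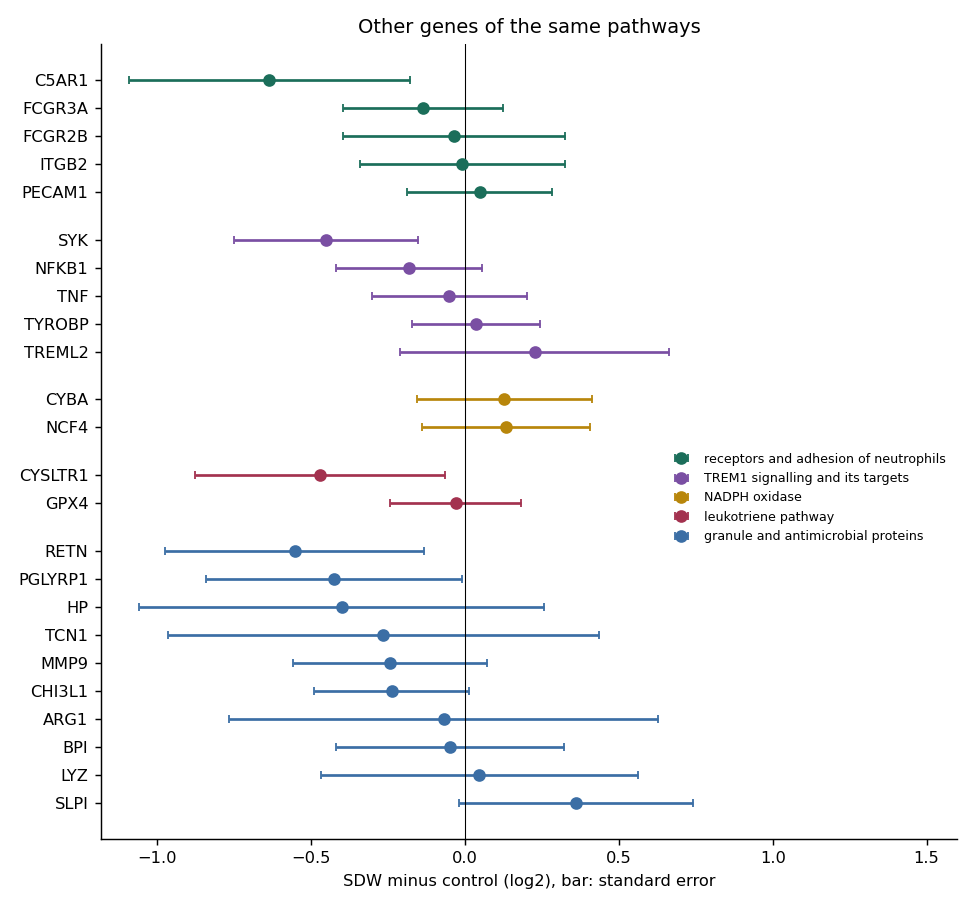
SDW minus control difference in log2 units (x axis) with its standard error for kept genes of the same pathways (y axis), grouped and coloured by list. C5AR1 at -0.64 lies farthest below 0 and SLPI at 0.36 farthest above it. CXCR1 is left out, since its control arrays give only a bound.

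Of 10 neutrophil markers listed, 2 were kept. MMP9, a gelatinase of neutrophil granules and 1 of the 2, averaged 6.84 ± 0.52 in SDW animals and 7.08 ± 0.39 in control animals (SD, n = 4 each). Levels were also summed on the linear scale, in units of the 75th percentile. For the 2 kept neutrophil markers the sum was 142 to 274 in SDW animals and 164 to 256 in control animals. For the 2 kept NK and cytotoxic markers, GNLY and KLRK1, it was 188 to 428 in SDW animals and 400 to 667 in control animals. For 4 kept eosinophil and basophil markers it was 68.2 to 141 in SDW animals and 37.8 to 74.5 in control animals. For 5 kept monocyte markers it was 97.2 to 146 in SDW animals and 90.3 to 134 in control animals. The ranges for T cell, B cell, platelet and erythroid markers overlapped between the diets as well. Such a sum rests mostly on its brightest gene. The mean log2 level in SDW animals was 8.21 for GNLY and -0.17 for KLRK1, and 6.20 for ALOX15 and 2.41 for GATA2. SDW minus control was 0.82 for ALOX15, 0.53 for CCR3 and 0.97 for MS4A2, but -0.21 for GATA2. Single monocyte markers ran from -0.73 for CD14 to 0.88 for CCR2. No marker passed the adjusted threshold by limma, and the part of cell composition in the members' levels was not tested.

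The named genes whose levels most resembled each member over the 8 animals were taken from 1094 genes by Pearson correlation, as a description without a test. All these values come from the same arrays, so a shared slide or scaling enters each correlation. For NCF1 the nearest was IRF3, an interferon regulatory factor, at r = 0.994 over 8 arrays and 0.991 over the 6 without slide 3, followed by IGF2 at 0.993 and ST6GALNAC4 at 0.987. IRF3 was also among the nearest for TREM1, at 0.928, after CERS4 at 0.956 and CYB561 at 0.931. Without slide 3 these TREM1 values were 0.844 for IRF3, 0.930 for CERS4 and 0.828 for CYB561.

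For ALOX5AP the nearest was MMP9 at 0.8292 over 8 arrays and 0.818 over the 6 without slide 3. CCR1, a chemokine receptor, and SFTPB followed at 0.802 each. Among the nearest to LTF were BCL10 at 0.905 and B3GNT5 at 0.903. NPG4 was nearest to CHAT at 0.952, although Spearman's rho was 0.738, and PMAP-23 to LIMA1 at 0.863. SPTAN1, a spectrin, was among the 3 nearest for both NPG4, at 0.915, and PMAP-23, at 0.842.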

How the data were processed

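The authors deposited scanner files with spot intensities on a linear scale. The software was Agilent Feature Extraction, 10.1.1.1 in the file headers and 9.5.3.1 in the submitters' processing notes. Background was subtracted and trends were removed within each array, per the file headers, and spots carry flags (other columns) and a scanner error. An alternative used the authors' deposited table of intensities. In it, 7 of 8 columns matched the scanner file of another replicate number on the same diet. Which numbering is right is not settled, and animals are numbered here by scanner file.

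Without control and outlier spots, each array's 75th percentile was subtracted on the log2 scale. Tested were the 17355 probes flagged well above background on 4 or more arrays; 3011 of all probes had a gene symbol, from the file or the RefSeq table. The diets were tested with limma 3.58.1 in R 4.3.3 (lmFit and eBayes without covariates, two-sided, Benjamini-Hochberg over these probes, threshold 0.05). Genes with several probes are given by the brightest one on average. The p-values set the diet difference against the spread between animals of the same diet, which limma moderates across probes. Without covariates that spread also holds differences between slides. With 4 animals per diet, the number of animals limits the precision.

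The members and gene lists were chosen with earlier results of these data known. Named are all members, up to 4 genes of smallest unadjusted p per list and the 3 genes most like each member. Some genes under this rule are not reported here. Alternatives changed background correction, scaling, filter, slide and replicate block, variance trend, probe and single animals.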

Additional observations from a re-analysis of the deposited data

Results flagged for a closer look

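In 3 of 52 groups of 4 animals checked, 1 animal stood apart by Dixon's criterion for its gap over the range, and chance alone gives about 1 in 20. TREM1 in control 1 was at 4.68, above the other control animals, of which the nearest was at 3.35. NCF1 in control 1 was at 4.00, above the other control animals, of which the nearest was at 2.04. Control 1 lies on slide 3, and SDW 4 of the same slide was the next highest animal for both genes. NPG4 in control 2 was at 2.42, below the other control animals, of which the nearest was at 3.11.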

How the results depend on the processing

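The SDW minus control difference stayed below 0 for all 7 member probes in each of the 146 values computed under the alternatives, leaving out 1 animal included. The members were chosen for lower values in SDW animals, so nothing is read from that shared sign. Alternatives that changed only the filter or the variance trend give the main difference again by construction. PMAP-23 could not be given when a probe had to be above background on all 8 arrays. The count of probes past the adjusted threshold by limma was 0 under 19 of 21 alternatives, where 162 to 1145 had an unadjusted p under 0.05, and was 1 without slide 3, with or without slide as a block (unadjusted counts 1441 and 543). That probe, A_72_P092736, has no gene symbol here and is no member, and it was named after its value was seen. Leaving out 1 animal kept the count at 0. Counts of pathway genes at an unadjusted p under 0.05 ran from 0 to 4, against 1. The gap between the gene groups was above 0 under 5 of 21 alternatives, 0.23 with slide as a block and -0.40 without slide 3, and its range with 1 animal left out, -0.49 to 0.35, spans 0. With normexp background correction PMAP-23 was at -0.23 (75th percentile) and -0.18 (quantile). With the replicate number as a block 0 probes were called, 239 had an unadjusted p under 0.05, and the members' differences were the same by construction; deviations of same-numbered animals correlated at -0.17, 0.11, 0.33 and -0.38. The descriptions give same-numbered animals the same feeding week, so whether they are pairs is not settled. The numbers themselves are uncertain, since scanner files and deposited table differ in them. The block changed no call. Signals near background limit PMAP-23, PR39 and CXCR1.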
